A study of Mus musculus with 6 samples.

Results

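NRF2, the transcription factor encoded by Nfe2l2, and 9 antioxidant genes (Nqo1, Slc7a11, Gclc, Gclm, Gsr, Txnrd1, Srxn1, Sod2 and Sod3) were followed in the lungs of endotoxaemic mice given recombinant human thrombomodulin (rhTM) or saline. These 10 genes were listed by name for their known part in antioxidant defence, with earlier results of these arrays known, and each was represented by its probe with the highest mean signal over all 6 arrays. They stood among 22815 genes with a usable probe, and all 10 passed the filter on dim probes, which left 16370 genes to test. No difference between the groups passed the test for any of the 10, as for 0% of the genes tested. The array of a single rhTM-treated mouse held the highest signal of 7 of the 10 genes, at 1.29- to 3.17-fold of the mean of the other 5 arrays, where it held the highest signal of 29.8% of all genes.

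The mice were C57BL6 males of 10 weeks, starved for 16 h before LPS, a bacterial cell wall component that provokes systemic inflammation, was injected i.p. at 20 mg/kg. Then 3 mice had saline and 3 mice had rhTM, the soluble form of an endothelial anticoagulant receptor, at 3 h and again at 24 h after LPS. Lungs were taken at 30 h, and total RNA from each lung was hybridised to 1 single-colour Agilent mouse array. All 6 mice had LPS, so the arrays give the level of these genes under rhTM relative to saline in endotoxaemia, and no level of a healthy lung. Only mice alive at 30 h could give a lung. Since whole lung was used, a smaller number of cells of one type and less RNA per cell cannot be told apart.

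In resting cells NRF2 is bound by KEAP1, which presents it to a CUL3 ubiquitin ligase for degradation. Oxidants and electrophiles modify KEAP1, NRF2 then accumulates, pairs with a small MAF protein and binds the antioxidant response element of its target genes. These targets supply cystine and glutathione (Slc7a11, Gclc, Gclm, Gsr), reduce thioredoxin and peroxiredoxins (Txnrd1, Srxn1) and detoxify quinones (Nqo1), whereas the dismutases Sod2 and Sod3 remove superoxide, with Sod2 also a textbook target of NF-κB.

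The element that NRF2 binds was looked for in the promoters of the 10 genes, since it is the sequence that the target genes are thought to share. The core TGACNNNGC was sought on both strands from 250 bases before to 50 bases after each RefSeq start site (assembly GRCm38.p6). Of the 10 genes, 7 had a window in the promoter table, and 4 of these 7 held the core. Some genes have more than 1 window, and counted by window the core was in 4 of 9 for these genes, compared with 12.4% of 32851 promoter windows of the same length. The 4 matches are shown 5′ to 3′ on the minus strand with the core in capitals, and none of them overlaps the AP-1 core TGANTCA.
Nfe2l2, chr2:75704885-75704913: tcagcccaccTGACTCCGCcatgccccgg
Srxn1, chr2:152105542-152105570: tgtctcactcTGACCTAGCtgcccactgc
Gclm, chr3:122245413-122245441: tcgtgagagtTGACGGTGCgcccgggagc
Txnrd1, chr10:82859104-82859132: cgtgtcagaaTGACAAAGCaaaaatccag
Relative to the start site of the gene, the core began at position -240 in Nfe2l2, -134 in Gclm and -92 in Txnrd1, and at position 28 in Srxn1. For Nqo1, Slc7a11 and Sod2 these letters were not in the window, which does not cover more distant elements. Gclc, Gsr and Sod3 had no entry in the promoter table. A match is a description of the letters and not evidence of binding.

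Each of the 6 arrays had 56605 probes, of which 36002 to 40503 were well above background and 0 were saturated. The 75th percentile of signal, by which each array was scaled, lay between 675 and 850. Some arrays stood apart from the others or disagreed with the deposited labels. The spike-in controls of saline mouse 1 had a slope of 0.826, whereas the slopes of the other 5 arrays were 1.07 to 1.09. In the table of values that the authors also deposited, the columns of saline mouse 1 and rhTM mouse 2 hold each other's arrays as judged from the scanner output, and no source used here tells which of them is mislabelled. Arrays were therefore grouped by the labels of the scanner files, and values from the authors' table are given where a log2 fold change or list median printed here differs in direction. The arrays lay on slides 1 and 2. By the authors' table, slide 1 would hold all saline arrays with rhTM mouse 1, and slide 2 rhTM mice 2 and 3. There treatment and slide are largely confounded, and without rhTM mouse 1 they cannot be told apart. Finally, the array of rhTM mouse 1 held the highest value of 29.8% and the lowest value of 26.6% of the 16370 genes, the largest share of both extremes among the 6 arrays. Its place in the rhTM group is the same in both sources.

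The level of each gene is given as its signal divided by the 75th percentile of the array, for the brightest probe of the gene, and levels are compared between arrays of the same probe only. Nfe2l2 (NM_010902), the regulator itself, read 12.6, 12.6 and 9.92 in saline mice 1, 2 and 3 and 10.03, 12.5 and 14.1 in rhTM mice 1, 2 and 3. The lowest values of each group were almost equal and the groups overlapped. Its log2 fold change (rhTM minus saline) was 0.05 ± 0.18 (SE, n = 3 per group) with an exact two-sided permutation p of 0.8. With 3 arrays against 3 this test cannot give a p below 0.1. The 95% interval of the difference ran from -0.36 to 0.47 on the log2 scale, and differences within these bounds are not excluded by the 6 arrays.

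**Figure D1:**
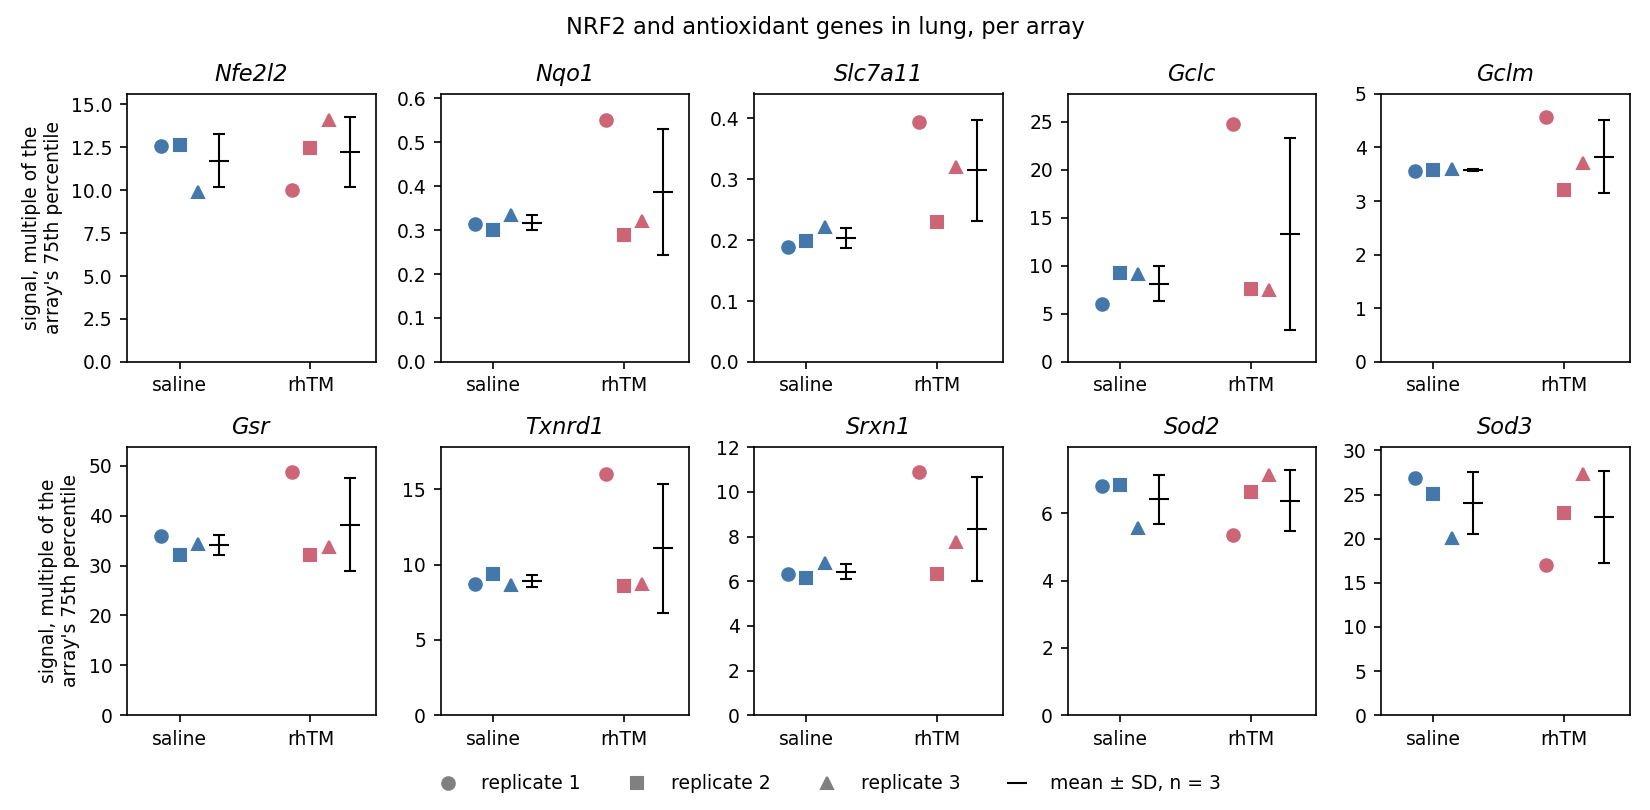
Signal of the 10 genes on each of the 6 arrays, as multiples of the array's 75th percentile on linear axes that start at 0, with circles, squares and triangles for replicates 1, 2 and 3 and a bar for the mean ± SD (n = 3). The circle of the rhTM group is the highest point for Nqo1, Slc7a11, Gclc, Gclm, Gsr, Txnrd1 and Srxn1 and the lowest for Sod2 and Sod3.

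Slc7a11 (NM_011990), the cystine importer that feeds glutathione synthesis, gave the largest difference among the 10 genes. It read 0.190, 0.199 and 0.221 with saline and 0.395, 0.229 and 0.320 with rhTM. Each rhTM array was above each saline array, although rhTM mouse 2 was close to saline mouse 3. No other gene of the 10 had groups that did not overlap, whereas 5.52% of all genes tested did, 2.95% with rhTM above. The log2 fold change was 0.60 ± 0.21 (SE, n = 3), with an exact two-sided permutation p of 0.1, the smallest possible, and an unadjusted interval of 0.10 to 1.10. Its p in limma was 0.0259 before adjustment, a level reached by 1.87% of all genes, and 0.9999 after Benjamini-Hochberg adjustment over all genes. In the authors' table the log2 fold change was 0.41 and the groups overlapped, whereas there 21.7% of all genes had groups apart, 9.68% with rhTM above and 12% below, and 14% had an unadjusted p under 0.05. A second, dimmer probe of Slc7a11 gave 0.61 with overlapping groups. Without rhTM mouse 1 the difference was 0.42 in the scanner output and 0.19 in the authors' table, and within the slides it was 0.52 on slide 1 and 0.76 on slide 2, the latter holding only saline mouse 1 and rhTM mouse 3. By the authors' table slide 2 would hold no saline array.

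Gclc (NM_010295), the catalytic subunit of the ligase that makes the first step of glutathione synthesis, varied most between arrays. It read 6.05, 9.23 and 9.12 with saline and 24.8, 7.62 and 7.50 with rhTM. The array of rhTM mouse 1 was 3.17-fold above the mean of the other 5, and the other rhTM arrays lay inside the saline range. The log2 fold change was 0.49 ± 0.48 (SE, n = 3; exact permutation p = 0.6), and without rhTM mouse 1 it was -0.08. The SD of Gclc within the groups, 0.74 on the log2 scale, exceeded that of 96.9% of all genes tested. Gclm (NM_008129), the modifier subunit of the same ligase, read 3.55, 3.58 and 3.60 with saline and 4.56, 3.21 and 3.71 with rhTM. Its 3 saline arrays were nearly equal, while its rhTM arrays lay on both sides of them. Gclm had a log2 fold change of 0.08 ± 0.15 (SE, n = 3; exact permutation p = 0.7), which without rhTM mouse 1 was -0.05 in the scanner output and 0.07 in the authors' table.

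Gsr (NM_010344), which returns oxidised glutathione to its reduced form, read 36.0, 32.1 and 34.3 with saline and 48.8, 32.0 and 33.8 with rhTM. Again the array of rhTM mouse 1 lay above the other 5, which kept within 0.17 of one another on the log2 scale. The difference was 0.14 ± 0.18 (SE, n = 3; exact permutation p = 0.9) on the log2 scale, and without that mouse it was -0.05 in the scanner output and 0.09 in the authors' table. In the single pair of arrays on slide 2 it was -0.09.

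Txnrd1 (NM_001042523), the reductase of cytosolic thioredoxin, read 8.71, 9.40 and 8.61 with saline and 16.0, 8.55 and 8.69 with rhTM. Of the 6 arrays, rhTM mouse 1 was 1.83-fold above the mean of the rest, and those 5 spanned 0.14 on the log2 scale. The log2 fold change was 0.25 ± 0.25 (SE, n = 3; exact permutation p = 0.9), and it was -0.05 without rhTM mouse 1. A second probe of Txnrd1 gave 0.41 and was also highest on that array. Srxn1 (NM_029688), which repairs over-oxidised peroxiredoxins, read 6.30, 6.17 and 6.81 with saline and 10.9, 6.33 and 7.77 with rhTM. Here both rhTM mice 1 and 3 were above all saline arrays, and rhTM mouse 2 was inside the saline range. Its log2 fold change was 0.34 ± 0.21 (SE, n = 3; exact permutation p = 0.2), with 0.36 on slide 1, 0.30 on slide 2 and 0.13 without rhTM mouse 1.

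Nqo1 (NM_008706), the quinone reductase often used as a readout of NRF2 activity, read 0.314, 0.301 and 0.335 with saline and 0.550, 0.288 and 0.320 with rhTM. The array of rhTM mouse 1 stood 1.77-fold above the mean of the other 5, and rhTM mouse 2 was the lowest of all. The log2 fold change of Nqo1 was 0.23 ± 0.25 (SE, n = 3; exact permutation p = 0.8), and without rhTM mouse 1 it was -0.06 in the scanner output and 0.04 in the authors' table.

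The dismutases showed another order of arrays. Sod2 (NM_013671), the mitochondrial enzyme, read 6.82, 6.84 and 5.57 with saline and 5.36, 6.62 and 7.14 with rhTM. Sod3 (NM_011435), the extracellular enzyme that is abundant in lung, read 26.9, 25.1 and 20.1 with saline and 17.0, 22.9 and 27.3 with rhTM. For both genes rhTM mouse 1 was the lowest array, saline mouse 3 the next lowest and rhTM mouse 3 the highest, so the groups overlapped throughout. The log2 fold changes were -0.01 ± 0.16 (SE, n = 3; exact permutation p = 1) for Sod2 and -0.11 ± 0.21 (SE, n = 3; exact permutation p = 0.7) for Sod3. Both signs turned in the authors' table, where the values were 0.02 and 0.04, and without rhTM mouse 1, where they were 0.11 and 0.07 in the scanner output.

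**Figure D2:**
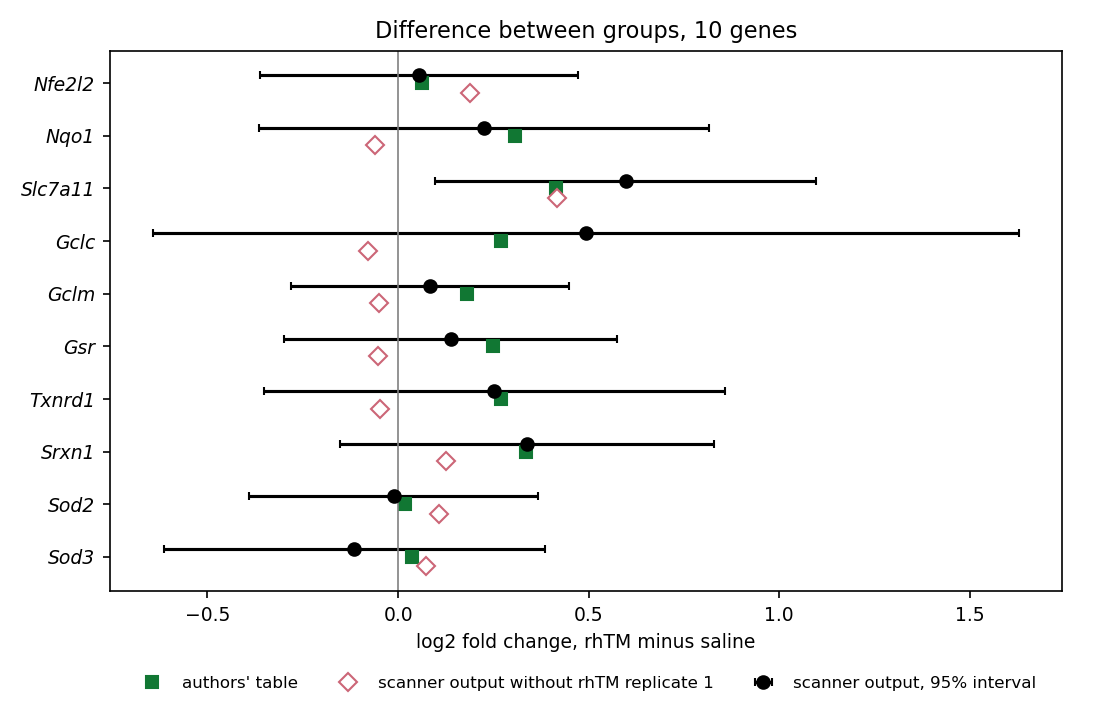
Log2 fold change (rhTM minus saline) of the 10 genes from the scanner output with its unadjusted 95% interval (circles with bars, n = 3 per group), from the authors' table (squares) and from the scanner output without rhTM mouse 1 (open diamonds). Of the 10 intervals, only that of Slc7a11, 0.10 to 1.10, lies on one side of 0, and without rhTM mouse 1 the values of Nqo1, Gclc, Gclm, Gsr and Txnrd1 lie just below 0.

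Considered as a list, 0 of the 10 genes passed the adjusted threshold, at which 0% of the 16370 genes were called by limma, with 306 genes at an unadjusted p under 0.05 and also 0 called by the methods' t-test after adjustment. The adjusted p (limma) was 0.9999 for each of the 10 genes in the scanner output and 0.472 to 0.966 in the authors' table. Means were higher with rhTM for 8 of the 10 genes, compared with 50.7% of all genes, and the median log2 fold change of the 10 was 0.18. In the authors' table the mean was higher for all 10 genes, against 46% of all genes there, with a median of 0.26. Without the array of rhTM mouse 1, means were higher for 5 of the 10 genes in the scanner output, with a median of 0.01, and for 8 of the 10 in the authors' table, with a median of 0.11. In that table the lowest count, 7 of the 10, came without saline mouse 3 or without rhTM mouse 3. Within the slides the median was 0.29 on slide 1, which holds rhTM mice 1 and 2 with saline mice 2 and 3, and 0.06 on slide 2.

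The array of rhTM mouse 1 was highest for 7 of the 10 genes, against 29.8% of all genes tested. These 7 were Nqo1, Slc7a11, Gclc, Gclm, Gsr, Txnrd1 and Srxn1, that is, the listed genes of glutathione, thioredoxin and quinone metabolism without the regulator and the dismutases. They were set apart after their values had been seen, so this is a description with no test. Their signal on that array exceeded the mean of the other 5 by 0.37 (Gclm) to 1.67 (Gclc) on the log2 scale, against a median of 0.01 for all genes. Of all genes, 84.0% had a smaller value than Gclm on this measure, 91.3% than Gsr and 99.5% than Gclc. Nfe2l2, Sod2 and Sod3 were below the mean of the other 5 by a log2 difference of -0.29, -0.29 and -0.52. The same 7 genes were highest on this array, and both dismutases lowest, under each of the 4 scalings compared (both 75th percentiles, quantile and normexp). Txnrd1 and Gsr, for which the other 5 arrays spanned 0.14 and 0.17, lay 0.77 and 0.44 above the next highest array. For Slc7a11 the other 5 arrays spanned 0.76 and the step to the next, rhTM mouse 3, was 0.30.

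Other known NRF2 targets were examined to see whether they shared this order. Of 24 listed, 23 were tested, 0 were called, 13 had the higher mean with rhTM and the median log2 fold change was 0.01. On rhTM mouse 1, 13 of the 23 were highest and 3 were lowest. The intestinal-type glutathione peroxidase Gpx2 stood 1.88 above the mean of the other 5 arrays on the log2 scale, the carbonyl reductase Cbr3 1.25 and the aldo-keto reductase Akr1b8 0.86. The glutathione transferases Gstm1 and Gstm2 and the epoxide hydrolase Ephx1 were instead lowest there, at -0.39, -0.29 and -0.29. Hmox1, the inducible haem oxygenase, was 0.35 above. Akr1b8 had the smallest p among those with the higher mean, reading 10.47, 10.49 and 10.67 with saline and 19.5, 10.59 and 11.7 with rhTM. Gsta3, another glutathione transferase, had the smallest p in the other direction, with a log2 fold change of -0.29 ± 0.15 (SE, n = 3; exact permutation p = 0.2).

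**Figure D3:**
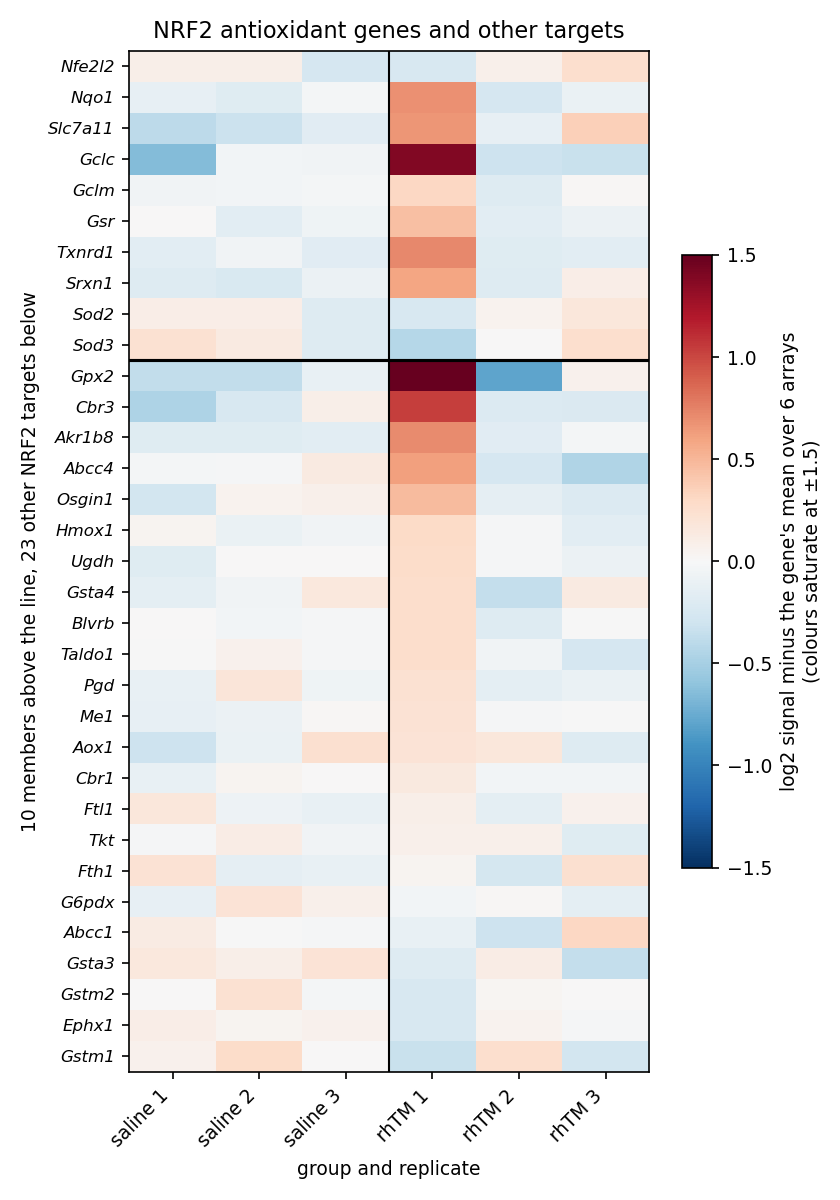
Log2 signal minus the mean of each gene over the 6 arrays, with the 10 genes above the thick line, 23 other NRF2 targets below it ordered by their value on rhTM mouse 1 against the other arrays, and a vertical line between the groups (colours saturate at ±1.5). The column of rhTM mouse 1 is red for 7 of the 10 genes and for 13 of the 23 it holds the highest value, while Nfe2l2, Sod2 and Sod3 are blue there.

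Among 12 genes that control NRF2 or pair with it, 10 had the higher mean with rhTM and 0 were called, with a median log2 fold change of 0.04. By the authors' values 5 of the 12 were higher and the median was -0.03. Keap1, the repressor, had a log2 fold change of 0.03, Bach1, which competes for the same element, 0.01, and the small MAF genes Mafg, Maff and Mafk 0.04, 0.24 and 0.06. In the authors' table Keap1 was at -0.04, Bach1 at -0.02 and Mafk at -0.12. Btrc, a ligase adaptor that targets NRF2, had the smallest p with the higher mean, a log2 fold change of 0.20, and Cul3 that with the lower, -0.08, which was 0.10 in the authors' table. On rhTM mouse 1, 7 of the 12 were highest. The log2 fold changes of the 12 genes ran from -0.08 to 0.24.

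The rest of the antioxidant system, and NF-κB and inflammation genes, were summarised in 4 further lists, none of which held a called gene. Other thioredoxin and peroxiredoxin genes had the higher mean with rhTM for 12 of 16 (median 0.09), but for 9 of 16 in the authors' table, with Sesn3 at 0.17 and Txn2 at -0.04. Other glutathione genes were higher for 8 of 20 (median -0.02), including Mgst1 at 0.30. Chac1, which degrades glutathione, read 1.48, 1.91 and 1.36 with saline and 0.923, 1.24 and 1.10 with rhTM, a log2 fold change of -0.54 ± 0.18 (SE, n = 3; exact permutation p = 0.1). Its groups did not overlap, as for 2.57% of all genes in that direction, and its adjusted p in limma was 0.9999. In the authors' table Chac1 was at -0.37 and its groups overlapped. Superoxide and peroxide genes were higher for 5 of 12 tested of 14 listed (median -0.03) with Cyba at 0.12 and Xdh at -0.15 having the smallest p in each direction, and Cyba was at -0.03 in the authors' table. In the NF-κB and inflammation list, 7 of 13 were higher (median 0.03, and -0.03 in the authors' table). The chemokine gene Cxcl2 gave 0.81 ± 0.40 (SE, n = 3; exact permutation p = 0.1). Its signal was 2.29 on rhTM mouse 1 against 0.609 to 0.953 on the other arrays. The groups did not overlap, as for 2.95% of all genes in that direction, with 0.725 on rhTM mouse 2 against 0.706 on saline mouse 1. The adjusted p of Cxcl2 in limma was 0.9999. In the authors' table Cxcl2 gave 0.78 with groups that overlapped. Tnf gave -0.45 ± 0.23 (SE, n = 3; exact permutation p = 0.2).

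**Figure D4:**
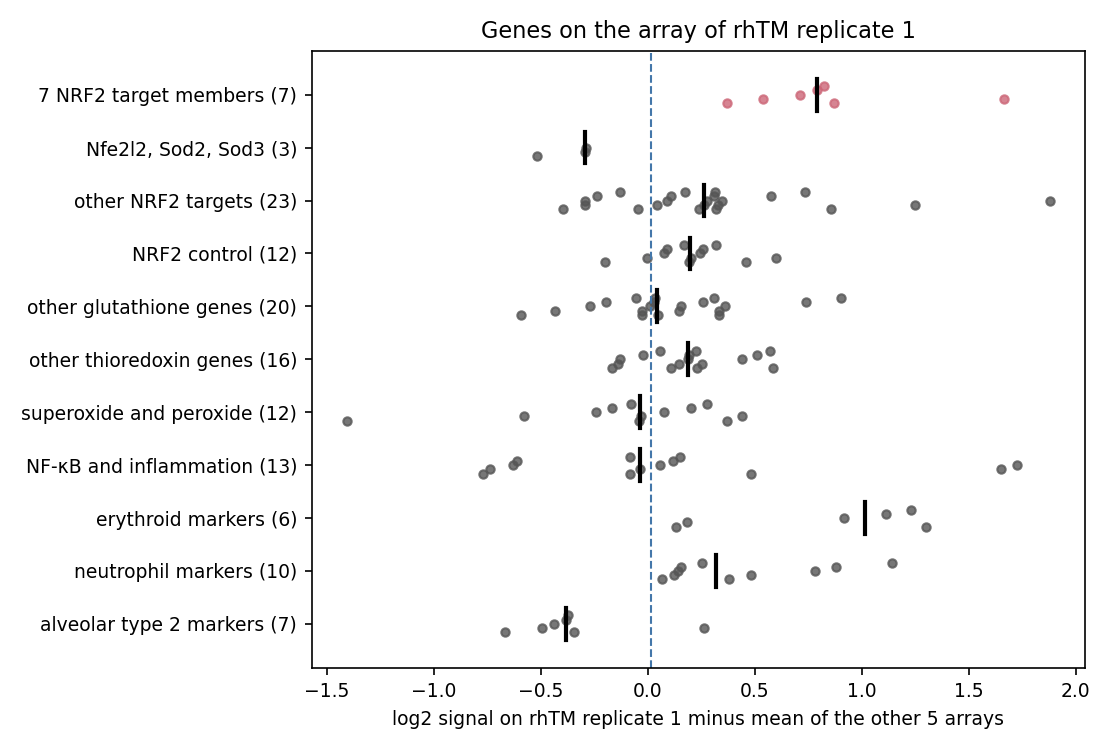
Log2 signal on the array of rhTM mouse 1 minus the mean of the other 5 arrays, 1 point per gene, for the 10 genes (split in the top 2 rows, a split made after the values were seen) and for the other lists, with the number of genes in brackets, a black bar at the list median and a dashed line at the median of all genes, 0.01. The 7 genes lie between 0.37 and 1.67, and the erythroid markers have a median of 1.01 and the alveolar type 2 markers of -0.38.

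Markers of several cell types also stood apart on the array of rhTM mouse 1. Erythroid markers were highest there for 4 of 6 tested genes, with a median of 1.01 above the other 5 arrays on the log2 scale, and neutrophil markers for 6 of 10, with a median of 0.32. The erythroid markers Hba-a1 and Hba-a2 were instead highest on saline mouse 1, and stood only 0.19 and 0.13 above the other 5 arrays on rhTM mouse 1. Alveolar type 2 markers were lowest there for 6 of 7, with a median of -0.38. Endothelial markers went both ways on that array, 3 of 7 being highest and 3 lowest, from Calcrl at -2.01 to Cldn5 at 0.70 on the log2 scale. Fibroblast markers, with a median of 0.05, also went both ways, from Col1a1 at -1.48 to Dcn at 0.40. The part of cell composition in the values of the 7 antioxidant genes was not tested. Between the groups, the summed level overlapped for each list tested: 950 to 1105 with saline and 963 to 1234 with rhTM for neutrophils, 1096 to 1411 and 1047 to 1466 for erythroid cells, and 1294 to 1762 and 1273 to 1644 for alveolar type 2 cells, in multiples of the 75th percentile. All 7 alveolar type 2 markers, the surfactant gene Sftpc among them, passed the filter, as the tissue label lung implies, and 0 of 4 liver markers did. In the comparison of the groups 0 markers were called, and the median log2 fold change was -0.11 for alveolar type 2, -0.09 for alveolar type 1, -0.17 for club, 0.06 for endothelial, 0.08 for neutrophil, -0.02 for macrophage, 0.16 for smooth muscle, 0.10 for fibroblast, 0.07 for erythroid and -0.35 for heart muscle markers. Of these 10 medians, 4 had the other sign in the authors' table, at 0.14 for alveolar type 2, 0.26 for club, -0.32 for endothelial and 0.12 for heart muscle markers.

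Among the 8038 genes whose spread over the 6 arrays was at least that of Nfe2l2, those with the nearest pattern were Pcdhb22, a protocadherin, St6gal1, a sialyltransferase, and Prkg1, a cGMP-dependent kinase. Their log2 values, centred on each gene's mean, differed from those of Nfe2l2 by a root mean square of 0.04, 0.05 and 0.05 over 6 arrays. Sod2 was as near, with a root mean square of 0.04, but its SD over the 6 arrays, 0.17 against 0.20 for Nfe2l2, kept it out of the genes compared. Sod3 followed at 0.11, and the other 7 antioxidant genes lay at 0.29 to 0.79. This is a description of 6 arrays and carries no test.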

How the data were processed

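The lungs of 3 mice given saline and 3 given rhTM were each measured on 1 Agilent array. The authors deposited scanner files with a linear intensity for every spot, background-corrected within the array. Its headers name Feature Extraction 10.7.3.1 and the submitters' processing notes name Agilent Feature Extraction 9.1. A deposited value table holds the same intensity values, without scaling between arrays; its saline 1 and rhTM 2 columns equal each other's scanner values within 0.1% for over 99.9% of probes. The labels name another RNA kit than the methods, which also call the control PBS in general.

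Control spots were left out, spots of a probe averaged, 398 of 56605 probes with only outlier-flagged spots dropped, and log2 signals scaled by subtracting each array's 75th percentile. Accessions were matched to RefSeq genes (GRCm38.p6); 32994 probes matched 1 gene. A probe passed if all 3 arrays of 1 group or the other read it well above background (36061 probes), and the brightest probe stood for its gene (16370 genes; 16320 in the table). Groups were compared with limma 3.58.1 in R 4.3.3 (lmFit, eBayes) at an adjusted p under 0.05 (Benjamini-Hochberg, all genes tested), and single genes by an exact two-sided permutation test in scipy 1.17.1. The number of arrays limits the precision. The 10 genes and the other lists were chosen with earlier results of these data known. Named beside the 10 genes are, for each list of pathway genes, that with the smallest p in each direction and any that passed, and the 3 genes nearest to Nfe2l2; the other genes named were chosen after their values were seen. Alternatives were the authors' table, the scaling, background correction, filter, choice of probe, slide and replicate number as blocks, the methods' t-test and leaving out arrays. Slides came from the scanner output: slide 2 held saline 1 and rhTM 3. By the authors' table it would hold rhTM 2 and rhTM 3, and a difference within slide 2 would then be between rhTM arrays. The labels name no pairing of mice by replicate number, and the main fit used none. Same-numbered arrays had correlations of their deviations of -0.30, 0.44 and -0.45 over 16370 genes. Other pairs also had positive correlations, saline 1 with rhTM 3 (0.64, both on slide 2) and saline 3 with rhTM 1 (0.45). Marker lists covered alveolar type 1 and type 2, club, endothelial, neutrophil, macrophage, smooth muscle, fibroblast, erythroid, heart and liver cells.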

Additional observations from a re-analysis of the deposited data

How the results depend on the processing

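Slc7a11 and Srxn1 were higher with rhTM under each alternative run, of which 5 (both filters, both blocks and the methods' t-test on the scanner output) left their fold changes as they were, and 0 of the 10 genes passed the threshold under 24 of 25 alternatives that gave a test. The exception was the slide block applied to the authors' table, a fit that in effect sets rhTM 1 alone against the saline arrays: 432 genes and 3 of the 10 genes were called by limma, namely Nqo1 (log2 fold change 0.84, adjusted p = 0.0436), Gclc (1.52, adjusted p = 0.0367) and Txnrd1 (0.86, adjusted p = 0.0392), the median of the 10 was 0.67 and Nfe2l2 was -0.21. The authors' table without rhTM 1 called 561 genes and 0 of the 10. In that setting every saline array lies on slide 1 and every rhTM array on slide 2, so treatment and slide cannot be told apart. Sod2 was 0.018 and Sod3 0.038 in the authors' table. Without saline 1 and rhTM 2, the arrays exchanged between the sources, 9 of the 10 genes were higher with a median of 0.34, Slc7a11 was 0.76, Srxn1 0.50 and Sod2 0.0044, and 1222 genes had an unadjusted p under 0.05. Within slide 1 Nfe2l2 was -0.00040, and within slide 2 Gsr was -0.093, Txnrd1 -0.0035, Sod2 0.066 and Sod3 0.024. Leaving out 1 array at a time from the scanner output gave 0 called genes, 5 to 9 of the 10 higher, a median of 0.01 to 0.33, and log2 fold changes of -0.079 to 0.78 for Gclc, -0.050 to 0.20 for Gclm, -0.052 to 0.25 for Gsr, -0.060 to 0.19 for Nfe2l2, -0.060 to 0.41 for Nqo1, 0.42 to 0.81 for Slc7a11, -0.11 to 0.11 for Sod2, -0.27 to 0.072 for Sod3, 0.13 to 0.52 for Srxn1 and -0.046 to 0.41 for Txnrd1, with rhTM 1 left out at the lower end for Gclc, Gclm, Gsr, Nqo1, Slc7a11, Srxn1 and Txnrd1. The same in the authors' table gave 0 to 561 called genes, 7 to 10 of the 10 higher, a median of 0.11 to 0.36, and -0.36 to 0.66 for Gclc, 0.071 to 0.25 for Gclm, 0.088 to 0.35 for Gsr, 0.042 to 0.45 for Nqo1, 0.19 to 0.72 for Slc7a11, 0.12 to 0.52 for Srxn1, -0.051 to 0.20 for Nfe2l2, -0.073 to 0.14 for Sod2, -0.081 to 0.26 for Sod3 and -0.024 to 0.42 for Txnrd1. In that table Sod2 and Sod3 stayed above 0 without saline 1 (0.051 and 0.049), saline 2 (0.074 and 0.11) or rhTM 1 (0.14 and 0.26). They fell below 0 without saline 3 (-0.073 and -0.048), rhTM 2 (-0.029 and -0.069) or rhTM 3 (-0.062 and -0.081). Nfe2l2 fell below 0 without saline 3 (-0.051) or rhTM 3 (-0.047), and Gclc (-0.36) and Txnrd1 (-0.024) without rhTM 1. With the replicate block, 0 genes were called and the median of the 10 stayed 0.18. The number of genes at an unadjusted p under 0.05 ran from 197 (normexp) to 4578 (table with slide block), against 306. The cause of these differences was not tested. Nqo1 and Slc7a11 had signals under the 75th percentile of the array, and the 6 arrays limit what can be detected for all 10 genes.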
